A study of Homo sapiens with 8 samples.

Results

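The genes described here build, load and regulate the major histocompatibility complex (MHC), the cell surface machinery that shows peptides to T cells. They were chosen by symbol, from a list of 32 named genes, and all 32 were found among the 25435 gene symbols of the deposited count table. The list holds 19 genes of the class I pathway and 13 of the class II pathway, which were treated apart. All 32 passed the filter on low counts, as did 14898 genes in all. The rule itself uses no measured value.

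The 8 libraries came from SET-2 cells, a human megakaryoblastic line established from an essential thrombocythemia at leukemic transformation, in a study of JAK2V617F-driven myeloproliferative neoplasm, per the series title. In the knockout group, 4 libraries came from cells transduced with a PLKO5 GFP virus carrying a guide RNA against ZRSR2, which encodes a splicing factor of minor introns. In the control group, labelled ZRSR2 wildtype, the other 4 came from cells whose guide targets no gene. Per genotype 2 guides were used, each of them in 2 experiments, and a further ZRSR2 guide of the design was not analysed here. Per the labels' protocol, RNA was taken on day 20 after transduction in biological replicate 1 and on day 25 in the other. The experiment number in the sample titles was read as that replicate number, which is an assumption. Under that reading the experiments differ in collection day, and day, culture and library preparation cannot be told apart. All libraries share 1 cell line and the guide vector. How Cas9 was supplied, and whether transduced cells were sorted or cloned, is not given in the sources used here. A guide number is shared between genotypes as a number only. Replicates 1 and 2 of a genotype are its guides 1 and 2 in experiment 1, and replicates 3 and 4 are the same guides in experiment 2.

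Totals ran from 31106042 to 71521173 expected counts per library, and the deepest was the non-targeting guide 1 library of experiment 2. Values are in CPM, the counts of a gene relative to its library's TMM-scaled total, and are given in the order guide 1, guide 2. ZRSR2 itself, the check of the labels, lay at 18.7 to 29.4 CPM in the knockout libraries and 37.9 to 41.1 CPM in the controls, without overlap (log2 fold change −0.67, adjusted p = 1, and 0.275 with the experiment as a block). Component 1 of a principal component analysis held 77% of the variance and separated the experiments. Markers of the labelled cell type were present, with 8 of 8 megakaryoblastic or platelet genes at a mean of at least 1 CPM and ITGA2B at 2086 to 2708 CPM.

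Class I molecules consist of a heavy chain and the light chain B2M, and carry peptides from the cytosol. Proteasomes cut those peptides, the TAP transporter moves them into the endoplasmic reticulum, aminopeptidases trim them there, and a loading complex fits them into the groove. Almost all nucleated cells carry class I, and NLRC5 is its main transcriptional coactivator. Class II molecules pair an alpha with a beta chain and carry peptides from endosomes to CD4+ T cells. The invariant chain CD74 fills their groove until HLA-DM exchanges it for peptide, a step that HLA-DO restrains. Class II is best known from dendritic cells, B cells and macrophages, but early blood progenitors can carry it, and its coactivator CIITA acts on promoters through the RFX complex, NF-Y and CREB.

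Promoters are shown because most members of both classes stood higher in experiment 2. RefSeq's promoter table, on GRCh38.p14, matched 27 of the 32 members. HLA-E, PDIA3, NLRC5, HLA-DRA and CIITA were not matched. The 250 bases before each start were searched on both strands for 5 motifs, whose letters were chosen with sequences in view. A gene counted once if any of its listed promoters held the motif. TGATGATG, letters of the X2 box to which CREB binds, was in 4 of 11 class II and 0 of 16 class I genes, and in 1.01% of all 27305 genes. CNAGNAAC, letters of the X1 box that the RFX complex binds, was in 8 of 11 class II and 7 of 16 class I genes, and in 12.1% of all 27305 genes. TGATTGG, letters of the Y box of NF-Y, was in 6 of 11 class II and 5 of 16 class I genes, and in 7.98% of all 27305 genes. GAANNGAAA, a short form of the interferon response element, was in 0 of 11 class II and 6 of 16 class I genes, and in 8.0% of all 27305 genes. A longer form, which has 1 further A before the N letters, was in 1 of 11 class II and 7 of 16 class I genes, and in 3.71% of all 27305 genes. TGATGATG and TGATTGG share their first letters, and overlapping copies of one motif counted once per gene. These are matches of letters in a reference genome, not in SET-2 cells, and no binding was measured.

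The class II promoters that hold TGATGATG are shown around their motifs, 5′ to 3′ along the gene, with every searched motif in capitals.
HLA-DRB1, chr6:32589878-32589941, minus strand: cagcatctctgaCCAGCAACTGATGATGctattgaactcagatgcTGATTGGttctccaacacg
HLA-DMB, chr6:32941091-32941130, minus strand: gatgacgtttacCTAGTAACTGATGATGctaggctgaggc
HLA-DMA, chr6:32953160-32953246, minus strand: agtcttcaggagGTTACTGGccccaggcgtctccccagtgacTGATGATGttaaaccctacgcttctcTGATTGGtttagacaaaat
HLA-DOB, chr6:32817084-32817138, minus strand: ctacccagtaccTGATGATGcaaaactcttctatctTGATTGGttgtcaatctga
In HLA-DRB1 and HLA-DMB the X1 letters run directly into the X2 letters, and in HLA-DMA the X1 letters lie on the other strand. These windows end 30 bases before the start of HLA-DRB1, 63 before HLA-DMB, 63 before HLA-DMA and 82 before HLA-DOB.

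Promoters of 4 class I genes that rose in experiment 2 are shown for comparison, with the interferon response letters and the Y box letters in capitals.
HLA-B, chr6:31357217-31357346, minus strand: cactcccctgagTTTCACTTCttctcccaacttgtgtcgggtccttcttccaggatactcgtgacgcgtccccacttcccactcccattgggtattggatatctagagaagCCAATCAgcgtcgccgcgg
HLA-C, chr6:31272130-31272255, minus strand: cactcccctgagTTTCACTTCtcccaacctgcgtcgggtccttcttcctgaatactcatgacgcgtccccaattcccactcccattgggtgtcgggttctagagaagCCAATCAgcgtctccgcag
B2M, chr15:44711361-44711484, plus strand: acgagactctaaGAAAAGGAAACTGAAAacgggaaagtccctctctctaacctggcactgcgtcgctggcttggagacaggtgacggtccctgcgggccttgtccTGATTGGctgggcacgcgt
TAPBP, chr6:33314079-33314110, minus strand: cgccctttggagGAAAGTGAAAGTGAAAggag
In HLA-B and HLA-C both motifs lie on the other strand, whereas B2M and TAPBP carry overlapping copies of the longer interferon response letters on the gene's own strand. None of these 4 windows holds TGATGATG. Interferon response letters were also in promoters of HLA-F, ERAP1 and ERAP2, which rose between experiments. They were in promoters of TAP1, TAP2, TAPBPL, PSMB10 and the class II gene RFX5 as well, which did not pass that test. The promoters of PSMB8 and PSMB9 lacked them, and both genes rose. Those of HLA-G, CALR and CANX lacked them, and these genes did not pass. Whether the letters go with the rise was not tested.

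Most genes of both classes stood higher in experiment 2, the class II chains by about 2-fold. Of the 32 members, 20 rose and 2 fell at an adjusted p under 0.05 in edgeR's quasi-likelihood test, and 10 did not pass. Among all tested genes the same comparison called 58.2%, 29.6% higher and 28.6% lower, with a median log2 fold change of 0.003. For class II, 10 of 13 genes rose and 1 fell, with a median log2 fold change of 0.938. For class I, 10 of 19 rose and 1 fell, with a median of 0.248. At least 2-fold rises were found for 6 members, all of class II, against 8.75% of all genes. The 4 libraries of experiment 2 lay above all 4 of experiment 1 in 19 members, compared with 28.0% of genes, and below them in 0 members, against 28.0% of genes. In bulk RNA, more cells of a kind and more RNA per cell cannot be told apart. The 4 libraries of an experiment are treated as its replicates although they carry different guides. The experiments themselves have no repeats, so the p-values of this comparison measure spread between libraries within an experiment. They do not measure how much experiments vary among themselves.

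All 6 class II chain genes rose, by log2 fold changes of 0.84 to 1.16, and in each of them the experiments did not overlap. HLA-DRA, the alpha chain of HLA-DR, was at 521 and 629.7 CPM in the knockout libraries and 493 and 493 CPM in the controls of experiment 1, and 1285 and 958 CPM against 1373 and 1012 CPM in experiment 2. Its means were 534 ± 65.2 CPM in experiment 1 and 1157 ± 203 CPM in experiment 2 (SD, n = 4 each; log2 fold change 1.12, SE 0.12, adjusted p = 2.1e-05). Every library of experiment 2 was above every library of experiment 1, both knockout libraries lay above both controls in experiment 1, and the genotypes interleaved in experiment 2. HLA-DRB1, its beta chain partner, was at 299 and 357 CPM with ZRSR2 guides and 281 and 281 CPM with non-targeting guides in experiment 1, then 726 and 552 CPM and 853 and 580.4 CPM in experiment 2. It rose 2.23-fold in mean CPM (log2 fold change 1.16, SE 0.13, adjusted p = 2.74e-05). The ratio of HLA-DRA to HLA-DRB1 CPM was 1.74 to 1.76 in experiment 1 and 1.61 to 1.77 in experiment 2, and its ranges overlapped.

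HLA-DPA1, the alpha chain of HLA-DP, was at 220.3 and 267 CPM (knockout) and 205 and 202 CPM (control) in experiment 1 and at 462 and 360.0 CPM (knockout) and 492 and 393 CPM (control) in experiment 2. Its partner HLA-DPB1 was at 116 and 136 CPM in the knockout libraries and 107 and 109 CPM in the controls of experiment 1, and 270.2 and 216 CPM against 319 and 228 CPM in experiment 2. The beta chain rose 2.21-fold in mean CPM (log2 fold change 1.15, SE 0.11, adjusted p = 1.58e-05) and the alpha chain 1.91-fold (log2 fold change 0.94, SE 0.10, adjusted p = 3.02e-05). The alpha to beta CPM ratio was 1.86 to 1.97 in experiment 1 and 1.54 to 1.73 in experiment 2, without overlap. HLA-DQA1, the alpha chain of HLA-DQ, was at 47.6 and 58.9 CPM with ZRSR2 guides and 44.6 and 48.1 CPM with non-targeting guides in experiment 1, then 108 and 81.3 CPM and 136 and 84.7 CPM in experiment 2. HLA-DQB1, its beta chain, was at 63.5 and 70.6 CPM (knockout) and 59.2 and 57.9 CPM (control) in experiment 1 and at 118 and 95.4 CPM (knockout) and 144 and 92.6 CPM (control) in experiment 2. Both rose (log2 fold change 1.04, SE 0.15, adjusted p = 0.000152 for HLA-DQA1, and log2 fold change 0.84, SE 0.13, adjusted p = 0.000245 for HLA-DQB1). In all 6 chains the highest library was the non-targeting guide 1 library of experiment 2, and both guide 1 libraries of that experiment lay above both guide 2 libraries. Without that highest library the 6 log2 fold changes were 0.67 to 1.02, each past the threshold.

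**Figure D1:**
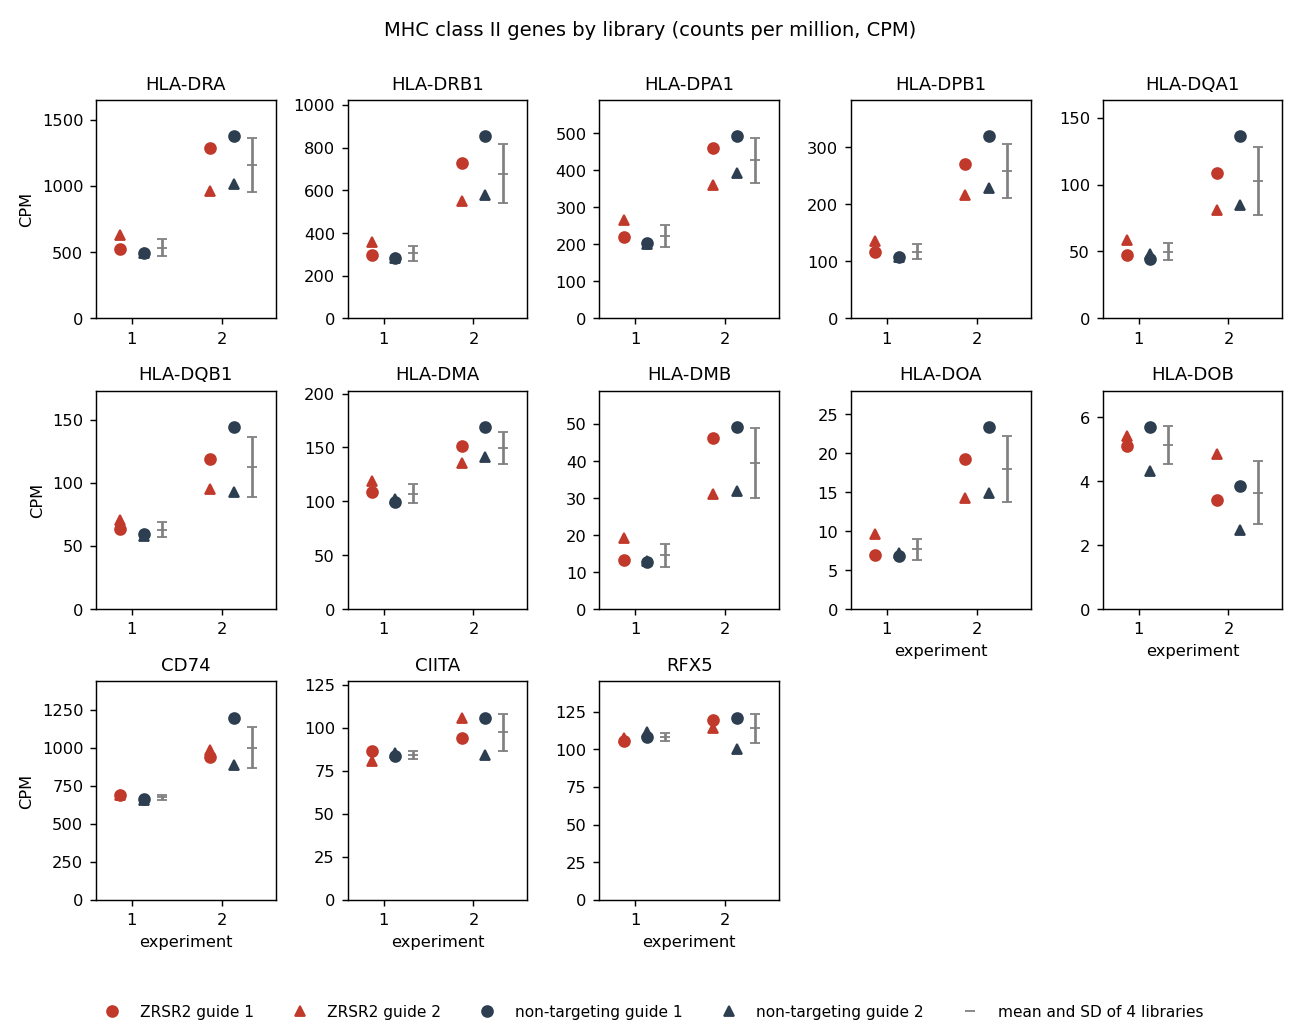
CPM of the 13 class II genes in each of the 8 libraries, by experiment (horizontal axis), with color for genotype, symbol for guide and a grey bar for the mean and SD of the 4 libraries of an experiment. The 6 chain genes, HLA-DMA, HLA-DMB, HLA-DOA and CD74 stand higher in every library of experiment 2, whereas HLA-DOB, CIITA and RFX5 overlap between experiments.

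The rise was present in both genotypes. Mean CPM of HLA-DRA rose 1.95-fold from experiment 1 to 2 in the knockout libraries and 2.42-fold in the controls (n = 2 in each cell), and HLA-DRB1 rose 1.95-fold and 2.55-fold. The difference of these effects did not pass the test in either gene (adjusted p = 1 each). Summed over the 6 chains, the level was 1189 to 1519 CPM in experiment 1 and 2262 to 3318 CPM in experiment 2, which is 0.118 to 0.153% and 0.232 to 0.325% of all counts.

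Genes that load class II molecules did not all move together. HLA-DMB, one chain of the peptide exchanger HLA-DM, was at 13.4 and 19.1 CPM in the knockout libraries and 12.6 and 13.1 CPM in the controls of experiment 1, and 46.2 and 31 CPM against 49.2 and 31.8 CPM in experiment 2. It had the largest rise of the 32 members (2.72-fold in mean CPM; log2 fold change 1.45, SE 0.17, adjusted p = 4.98e-05). HLA-DMA, the other chain, was at 108 and 119 CPM with ZRSR2 guides and 99.6 and 102 CPM with non-targeting guides in experiment 1, then 151 and 136 CPM and 169 and 141 CPM in experiment 2, and rose 1.39-fold (log2 fold change 0.48, SE 0.08, adjusted p = 0.000468). All libraries of experiment 2 were above those of experiment 1 in both genes, yet the HLA-DMA to HLA-DMB ratio was 6.22 to 8.08 in experiment 1 and 3.28 to 4.42 in experiment 2, without overlap. Both promoters, as printed, hold the X2 letters, as do those of HLA-DRB1, which rose, and HLA-DOB, which fell. The searched promoters of HLA-DPA1, HLA-DPB1, HLA-DQA1, HLA-DQB1, HLA-DOA and CD74 lack these letters, and those genes rose. The RFX5 promoter lacks them too, and RFX5 did not pass. Whether the X2 letters go with the rise was not tested.

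HLA-DOA, the alpha chain of the HLA-DM inhibitor HLA-DO, was at 6.99 and 9.66 CPM (knockout) and 6.76 and 7.26 CPM (control) in experiment 1 and at 19.2 and 14.3 CPM (knockout) and 23.4 and 14.8 CPM (control) in experiment 2. It rose 2.34-fold (log2 fold change 1.23, SE 0.17, adjusted p = 0.000124), without overlap between experiments. HLA-DOB, the beta chain, was at 5.11 and 5.4 CPM in the knockout libraries and 5.7 and 4.33 CPM in the controls of experiment 1, and 3.43 and 4.85 CPM against 3.83 and 2.47 CPM in experiment 2. It was the only class II gene that fell (log2 fold change −0.50, SE 0.18, adjusted p = 0.0357), and its experiments overlapped. Leaving out knockout replicate 1, 2 or 3, or control replicate 1 or 4, ended that call (over the 12 alternatives run, −0.68 to −0.37 with adjusted p up to 0.144). The HLA-DOA to HLA-DOB ratio was 1.19 to 1.79 in experiment 1 and 2.95 to 6.09 in experiment 2. CD74, the invariant chain, was at 688 and 689 CPM with ZRSR2 guides and 659.9 and 658 CPM with non-targeting guides in experiment 1, then 939 and 983 CPM and 1198 and 886 CPM in experiment 2. It rose 1.49-fold (log2 fold change 0.57, SE 0.09, adjusted p = 0.000255), and the experiments did not overlap. The ratio of summed class II chains to CD74 was 1.8 to 2.21 in experiment 1 and 2.3 to 3.16 in experiment 2.

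The 2 class II regulators did not pass the test. CIITA, the coactivator that sets class II transcription, was at 86.3 and 80.8 CPM (knockout) and 83.7 and 85.5 CPM (control) in experiment 1 and at 93.8 and 106 CPM (knockout) and 106 and 83.8 CPM (control) in experiment 2. Its experiments overlapped (log2 fold change 0.21, SE 0.09, adjusted p = 0.0575), and it passed the threshold without the count filter, with a filter of at least 10 counts in every library, without knockout replicate 3 or without control replicate 4 (0.12 to 0.28 over all alternatives run). RFX5, the DNA-binding subunit of the RFX complex, was at 106 and 107 CPM in the knockout libraries and 108 and 112 CPM in the controls of experiment 1, and 119.7 and 114 CPM against 121 and 100.5 CPM in experiment 2. It overlapped between experiments as well (log2 fold change 0.07, SE 0.08, adjusted p = 0.426). The ratio of summed class II chain CPM to CIITA CPM was 13.9 to 18.8 in experiment 1 and 21.4 to 31.7 in experiment 2, without overlap.

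Among class I heavy chains, 4 of 5 rose and none fell. HLA-E, the ligand of the NKG2A receptor of natural killer cells, was at 919 and 871 CPM with ZRSR2 guides and 938 and 893 CPM with non-targeting guides in experiment 1, then 1498 and 1274 CPM and 1766 and 1762 CPM in experiment 2. It rose most of the class I genes (1.74-fold in mean CPM; log2 fold change 0.79, SE 0.07, adjusted p = 6.13e-06), and the experiments did not overlap. HLA-B, a classical heavy chain that presents peptides to CD8+ T cells, was at 3332 and 3466 CPM (knockout) and 3341 and 3252 CPM (control) in experiment 1 and at 4540.3 and 4096 CPM (knockout) and 5404 and 4115 CPM (control) in experiment 2. HLA-C, a classical heavy chain that also binds killer cell receptors, was at 1225 and 1275 CPM in the knockout libraries and 1248 and 1249 CPM in the controls of experiment 1, and 1613 and 1519 CPM against 1870.0 and 1539 CPM in experiment 2. HLA-B rose 1.36-fold (log2 fold change 0.44, SE 0.08, adjusted p = 0.00103) and HLA-C 1.31-fold (log2 fold change 0.39, SE 0.07, adjusted p = 0.000846), again without overlap. Their spread was narrow in experiment 1 and wider in experiment 2, where the non-targeting guide 1 library was highest.

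HLA-F, a nonclassical heavy chain, was at 114 and 116 CPM with ZRSR2 guides and 109 and 104 CPM with non-targeting guides in experiment 1, then 158 and 156 CPM and 183 and 126 CPM in experiment 2, and rose (log2 fold change 0.49, SE 0.10, adjusted p = 0.00192). HLA-G, best known from the placenta, was at 11.7 and 9.58 CPM (knockout) and 12.1 and 11.7 CPM (control) in experiment 1 and at 9.67 and 12.7 CPM (knockout) and 19 and 12.1 CPM (control) in experiment 2. It did not pass (log2 fold change 0.24, SE 0.15, adjusted p = 0.201), and its one high value was the non-targeting guide 1 library of experiment 2. Its log2 fold change was 0.06 without control replicate 3, 0.13 without knockout replicate 4, and 0.37, past the threshold, without control replicate 4. The light chain B2M was at 1823 and 2027 CPM in the knockout libraries and 1989 and 1989 CPM in the controls of experiment 1, and 2446 and 2118 CPM against 2260.1 and 2492 CPM in experiment 2. It rose 1.19-fold (log2 fold change 0.25, SE 0.07, adjusted p = 0.00975), without overlap between experiments. Summed heavy chains were at 5509 to 5737 CPM in experiment 1 and 7058 to 9241 CPM in experiment 2, and the ratio of class II chains to class I heavy chains was 0.211 to 0.265 in experiment 1 and 0.316 to 0.38 in experiment 2. These ratios of CPM depend on gene lengths and are read between experiments only.

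**Figure D2:**
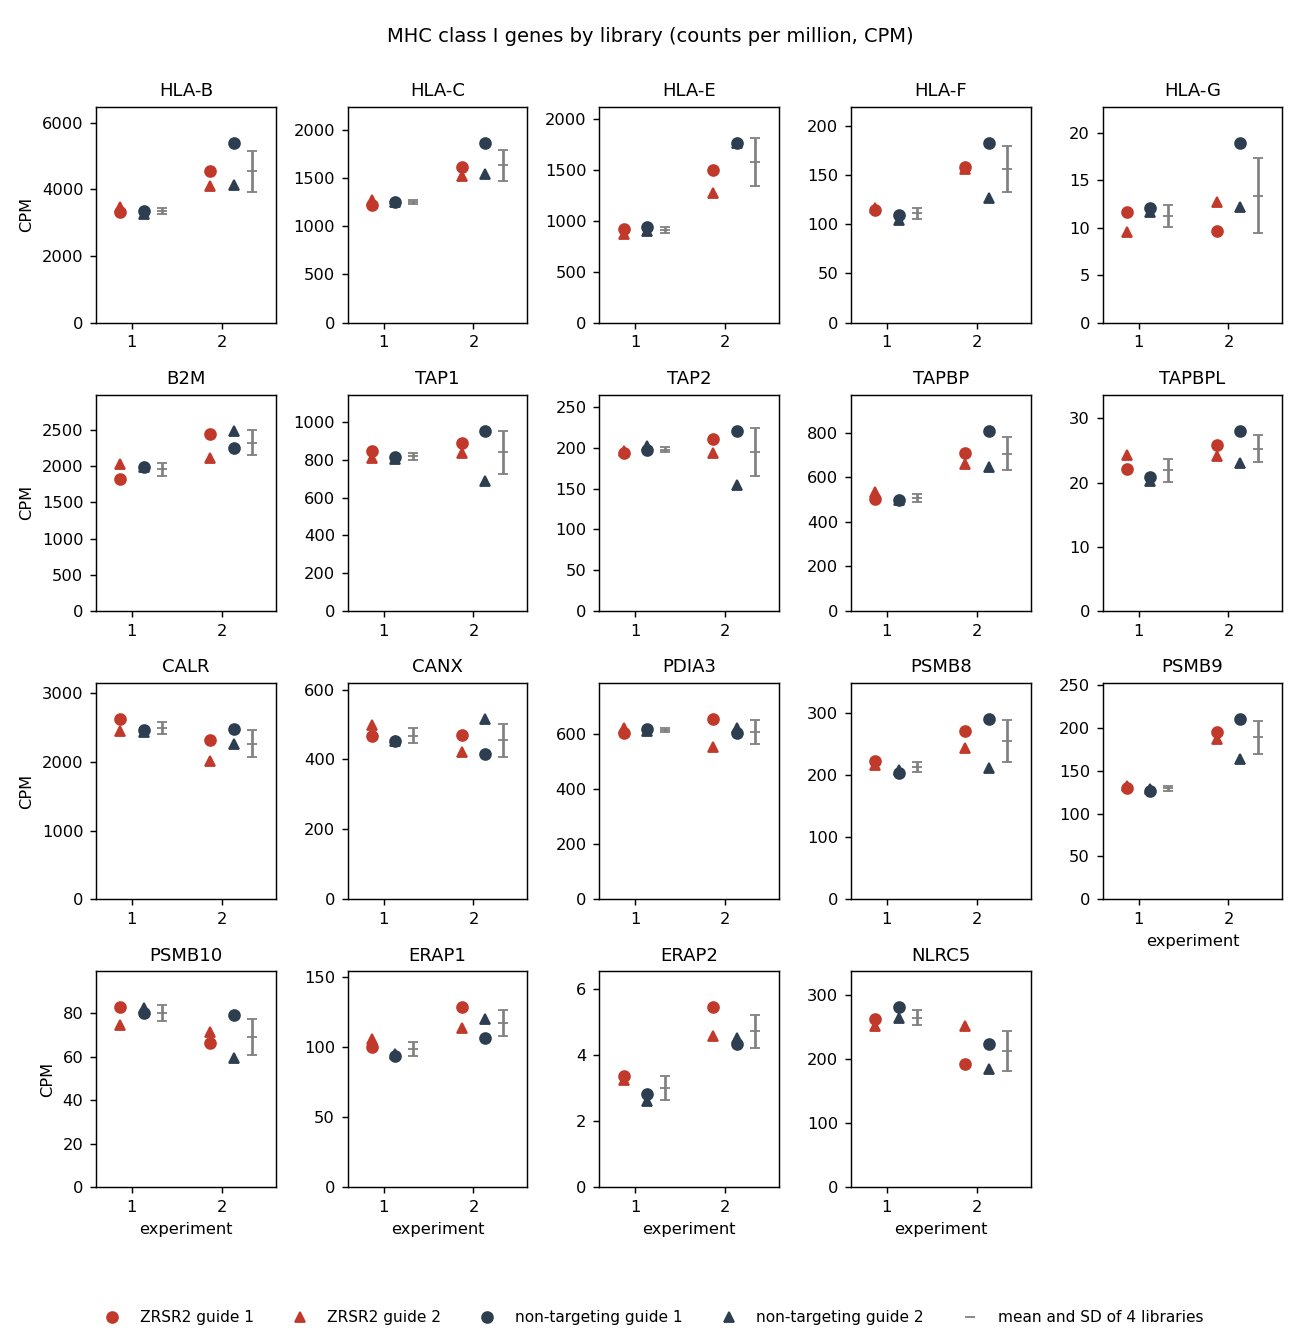
CPM of the 19 class I genes in each of the 8 libraries, by experiment (horizontal axis), with color for genotype, symbol for guide and a grey bar for the mean and SD of 4 libraries. HLA-B, HLA-C, HLA-E, HLA-F, B2M, TAPBP, PSMB9, ERAP1 and ERAP2 are higher in every library of experiment 2, while the other 10 overlap.

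Of 7 genes for peptide transport and loading, only TAPBP passed the test. TAPBP encodes tapasin, which holds class I molecules at the transporter, and was at 500.1 and 533 CPM with ZRSR2 guides and 495 and 499.6 CPM with non-targeting guides in experiment 1, then 709 and 659 CPM and 808 and 647 CPM in experiment 2. It rose 1.39-fold (log2 fold change 0.48, SE 0.08, adjusted p = 0.000402), without overlap. The transporter subunit TAP1 was at 848 and 808 CPM (knockout) and 812 and 803 CPM (control) in experiment 1 and at 888 and 836 CPM (knockout) and 953 and 686 CPM (control) in experiment 2. Its partner TAP2 was at 194 and 197 CPM in the knockout libraries and 197 and 202 CPM in the controls of experiment 1, and 210.3 and 194 CPM against 221 and 154 CPM in experiment 2. Neither passed (log2 fold changes 0.04 and −0.02, SE 0.09 and 0.10), and both signs turned when single libraries were left out. TAP1 moved to −0.09 without control replicate 3 and to 0.14, past the threshold, without control replicate 4. TAP2 moved to −0.16, past the threshold, without control replicate 3, to 0.09 without control replicate 4 and to 0.01 without knockout replicate 4. The ratio of TAPBP to TAP1 CPM was 0.59 to 0.661 in experiment 1 and 0.787 to 0.944 in experiment 2. TAPBPL, a tapasin relative that edits peptides, was at 22.2 and 24.4 CPM with ZRSR2 guides and 20.9 and 20.2 CPM with non-targeting guides in experiment 1, then 25.8 and 24.2 CPM and 28.1 and 23.1 CPM in experiment 2. Its log2 fold change was 0.21 (SE 0.09, adjusted p = 0.0729), and 0.27, past the threshold, without control replicate 4.

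Chaperones of the endoplasmic reticulum that serve many proteins besides class I did not pass. Calreticulin, from CALR, was at 2626 and 2453 CPM (knockout) and 2467 and 2432 CPM (control) in experiment 1 and at 2323 and 2010.5 CPM (knockout) and 2483 and 2257 CPM (control) in experiment 2. Calnexin, from CANX, was at 468 and 497 CPM in the knockout libraries and 453 and 454 CPM in the controls of experiment 1, and 469 and 421 CPM against 415 and 515 CPM in experiment 2. The disulfide isomerase ERp57, from PDIA3, was at 604 and 619 CPM with ZRSR2 guides and 617 and 609.9 CPM with non-targeting guides in experiment 1, then 653 and 550.5 CPM and 603 and 619 CPM in experiment 2. All 3 overlapped between experiments, with log2 fold changes of −0.14 for CALR, −0.04 for CANX and −0.01 for PDIA3 and adjusted p of 0.0985, 0.684 and 0.869. CALR passed as lower without control replicate 3 (−0.17) or knockout replicate 3 (−0.19).

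Of the 3 catalytic subunits of the immunoproteasome, the proteasome form that favours class I peptides, 2 rose. PSMB9 was at 129.9 and 132 CPM (knockout) and 126 and 129 CPM (control) in experiment 1 and at 195 and 187 CPM (knockout) and 210.4 and 164 CPM (control) in experiment 2, a rise of 1.46-fold (log2 fold change 0.55, SE 0.08, adjusted p = 0.000245) without overlap. PSMB8 was at 223 and 216 CPM in the knockout libraries and 204 and 208 CPM in the controls of experiment 1, and 270.3 and 244 CPM against 289.7 and 212 CPM in experiment 2. It rose (log2 fold change 0.26, SE 0.09, adjusted p = 0.0368), but its experiments overlapped, and the call was lost when knockout replicate 1, 2 or 3 or control replicate 1, 2 or 3 was left out (over the 12 alternatives run, 0.14 to 0.36 with adjusted p up to 0.106). PSMB10 was at 82.8 and 74.8 CPM with ZRSR2 guides and 80.3 and 82.5 CPM with non-targeting guides in experiment 1, then 66.4 and 71.5 CPM and 79.1 and 59.3 CPM in experiment 2, and did not pass (log2 fold change −0.21, SE 0.09, adjusted p = 0.0758). It passed as lower without the count filter and without control replicate 3 (−0.32). Their constitutive counterparts PSMB6, PSMB5 and PSMB7 had log2 fold changes of −0.16, −0.37 and −0.43 (adjusted p = 0.296, 0.00765 and 0.000719), so PSMB5 and PSMB7 fell. A ratio moves with both of its genes. The PSMB9 to PSMB6 ratio was 0.96 to 1.01 in experiment 1 and 1.48 to 1.79 in experiment 2, and the PSMB8 to PSMB5 ratio 1.4 to 1.54 in experiment 1 and 2.26 to 2.29 in experiment 2, neither overlapping. The PSMB10 to PSMB7 ratio was 0.405 to 0.481 in experiment 1 and 0.466 to 0.581 in experiment 2.

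Both aminopeptidases that trim class I peptides rose. ERAP2 was at 3.37 and 3.26 CPM (knockout) and 2.82 and 2.62 CPM (control) in experiment 1 and at 5.45 and 4.59 CPM (knockout) and 4.33 and 4.53 CPM (control) in experiment 2, a rise of 1.57-fold (log2 fold change 0.65, SE 0.13, adjusted p = 0.00176). ERAP1 was at 99.8 and 105 CPM in the knockout libraries and 93.9 and 95.2 CPM in the controls of experiment 1, and 128 and 114 CPM against 106 and 120.0 CPM in experiment 2 (log2 fold change 0.25, SE 0.07, adjusted p = 0.0141). Neither overlapped between experiments, though the ERAP1 call was lost without knockout replicate 1 or 3 or control replicate 1 or 2 (over the 12 alternatives run, 0.20 to 0.29 with adjusted p up to 0.0656). NLRC5, the class I coactivator, was at 262 and 251 CPM with ZRSR2 guides and 281 and 264 CPM with non-targeting guides in experiment 1, then 192 and 252 CPM and 223 and 184 CPM in experiment 2. It was the only class I gene that fell (log2 fold change −0.31, SE 0.10, adjusted p = 0.0159), its experiments overlapped through the knockout guide 2 library of experiment 2, and the call was lost without knockout replicate 1 or 3 or control replicate 1 (over the 12 alternatives run, −0.42 to −0.22 with adjusted p up to 0.0564).

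**Figure D3:**
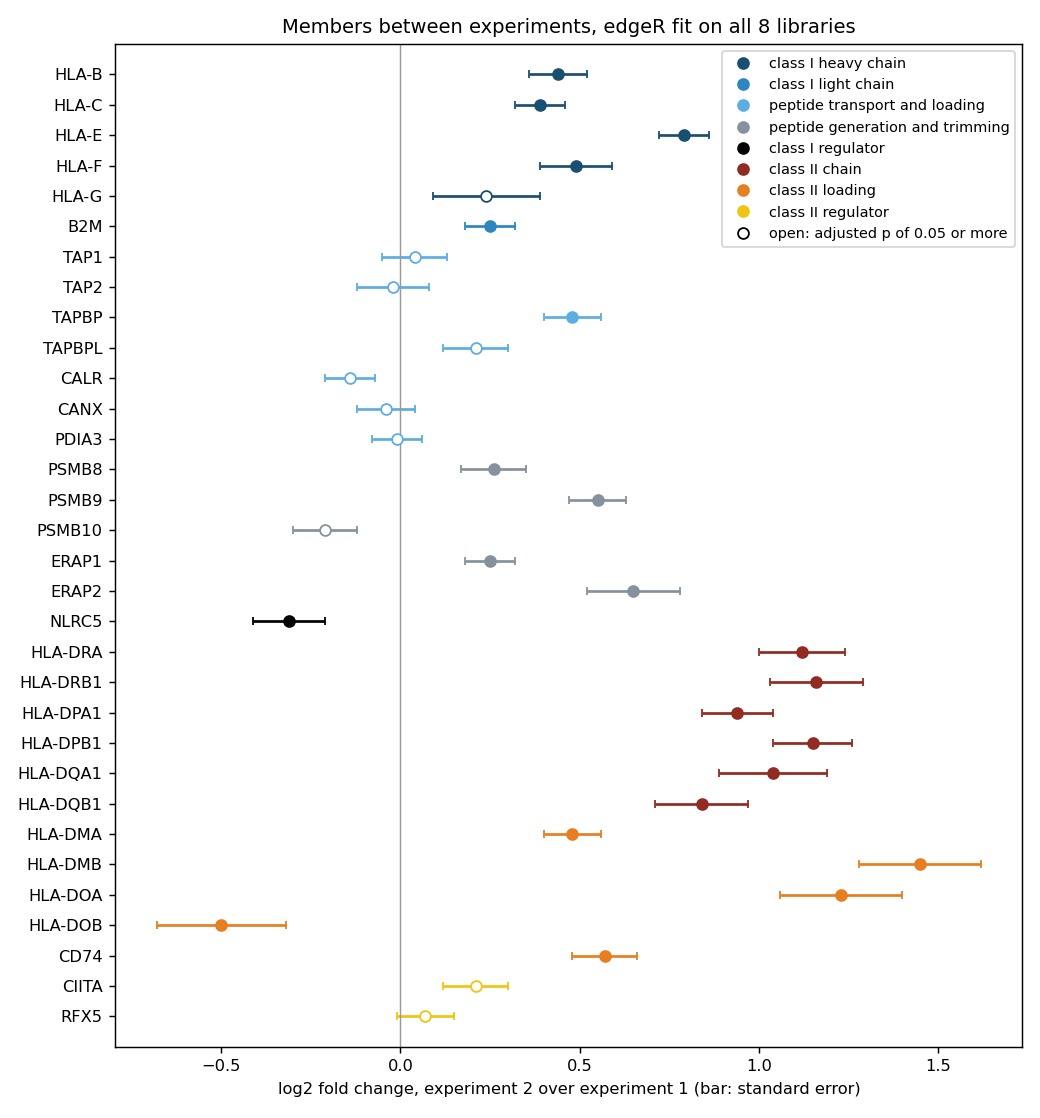
Log2 fold change of each member from experiment 1 to experiment 2 (horizontal axis), with bars for the standard error, color for role and open symbols for an adjusted p of 0.05 or more. Class II chains lie between 0.84 and 1.16, class I heavy chains between 0.24 and 0.79, and NLRC5 and HLA-DOB are the called genes below 0.

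Levels between genes were compared per kilobase of the principal GENCODE 29 transcript. HLA-B was highest, at 2164 ± 57 CPM per kilobase in experiment 1 and 2934 ± 396 in experiment 2 (mean ± SD, n = 4). In experiment 1, CALR followed at 1311 ± 46.6, B2M at 1148 ± 53.4, HLA-C at 813 ± 13.3 and CD74 at 687 ± 17.5 CPM per kilobase. The next was HLA-DRA, at 417 ± 50.9, whose SD range did not reach HLA-E at 348 ± 11.3. TAP1 at 276 ± 6.86, TAPBP at 269 ± 9.35 and HLA-DRB1 at 248 ± 29.6 CPM per kilobase lay within their spread of each other. In experiment 2, HLA-DRA stood at 904 ± 159 CPM per kilobase, within its SD of CD74 at 1021 ± 139.5. ERAP2 was lowest in both, at 0.529 ± 0.0625 in experiment 1, and HLA-DOA and HLA-DOB changed places, from 2.2 ± 0.385 and 3.6 ± 0.411 to 5.14 ± 1.22 and 2.55 ± 0.69 CPM per kilobase.

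HLA genes have near-identical copies, and RSEM splits reads that fit several of them by probability, so single HLA values are uncertain. Rows of such copies moved in the same direction. HLA-DRB5, a further DR beta chain, was at 61.3 and 73.2 CPM (knockout) and 56.7 and 58 CPM (control) in experiment 1 and at 153 and 114 CPM (knockout) and 179 and 113 CPM (control) in experiment 2 (log2 fold change 1.17). HLA-DQA2 was at 18.6 and 23.1 CPM in the knockout libraries and 16.8 and 15.8 CPM in the controls of experiment 1, and 53.6 and 37.9 CPM against 66.5 and 40.3 CPM in experiment 2 (log2 fold change 1.42). HLA-H, a class I pseudogene, was at 86.6 and 88.7 CPM with ZRSR2 guides and 89.1 and 87.2 CPM with non-targeting guides in experiment 1, then 106 and 104 CPM and 136 and 107 CPM in experiment 2 (log2 fold change 0.36). All 3 were higher in every library of experiment 2, and how many of these reads belong to members was not tested. In GENCODE 29, 24 of the 32 members overlap another annotated gene, 19 of them on the opposite strand, and whether the counting used strand is not given in the sources used here.

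Other genes of the pathway, from lists chosen from textbook knowledge, were read from the same fit. Among transcription factors that act on class I and II promoters, 1 of 12 tested genes rose and 6 fell (median log2 fold change −0.214). RFXANK, a subunit of the RFX complex, went from 63.4 ± 2.14 to 48.7 ± 3.71 CPM (log2 fold change −0.38). IRF1, which drives class I and CIITA transcription in interferon responses, went from 194 ± 8.35 to 118 ± 12.8 CPM (log2 fold change −0.71), and RELA, a subunit of NF-κB, from 147 ± 8.21 to 112 ± 8.1 CPM (log2 fold change −0.39). These 3 fell while class II chains rose, and any link between them was not tested. Among interferon receptors and signalling genes, 4 of 13 tested genes rose and 2 fell (median log2 fold change 0.018). Those that moved most were SOCS1, an inhibitor of JAK signalling, from 6.59 ± 1.06 to 11.6 ± 2.01 CPM (log2 fold change 0.82), the interferon gamma receptor chain IFNGR2, from 81.8 ± 2.5 to 125 ± 19.2 CPM (log2 fold change 0.61), and SOCS3, from 20.6 ± 1.78 to 30.3 ± 2.67 CPM (log2 fold change 0.56).

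Among interferon-stimulated genes, 2 of 16 tested genes rose and 11 fell (median log2 fold change −0.476). GBP1, a guanylate-binding protein induced by interferon gamma, went from 179 ± 17.9 to 70.9 ± 0.845 CPM (log2 fold change −1.33). IFI44L went from 10.02 ± 0.884 to 2.94 ± 1.6 CPM (log2 fold change −1.83) and IFIT3 from 86.2 ± 6.07 to 46.5 ± 3.97 CPM (log2 fold change −0.89). Most of this list fell between experiments, where 10 of 19 class I members rose, 1 fell and 8 did not pass. Any link between this list and the members was not tested. Among constitutive proteasome subunits and activators, 0 of 8 tested genes rose and 5 fell (median log2 fold change −0.399), led by the activator PSME3, from 229 ± 7.47 to 112 ± 15.1 CPM (log2 fold change −1.04). PSMD1, of the regulatory particle, went from 277 ± 3.76 to 202 ± 29.5 CPM (log2 fold change −0.46) and PSME2, of the interferon-inducible activator, from 155 ± 2.25 to 114 ± 17.4 CPM (log2 fold change −0.45).

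Among genes of endosomal processing, which prepares class II peptides, 5 of 8 tested genes rose and 0 fell (median log2 fold change 0.42). The lysosomal protease CTSL went from 75.6 ± 7.47 to 133 ± 19.5 CPM (log2 fold change 0.81), CTSB from 279 ± 10.5 to 407 ± 44.9 CPM (log2 fold change 0.54) and CTSD from 310.0 ± 13 to 417 ± 40.3 CPM (log2 fold change 0.43). Among class I-like molecules, 8 of 10 tested genes rose and 0 fell (median log2 fold change 0.579). MR1, which presents vitamin B metabolites, went from 34.4 ± 1.74 to 66.7 ± 4.92 CPM (log2 fold change 0.96), CD1D, which presents lipids, from 0.989 ± 0.3 to 1.84 ± 0.378 CPM (log2 fold change 0.90), and PROCR, the endothelial protein C receptor, from 6.39 ± 0.596 to 11.7 ± 1.55 CPM (log2 fold change 0.87). Among costimulatory and checkpoint ligands, 1 of 7 tested genes rose and 4 fell (median log2 fold change −0.324). CD274, which encodes PD-L1, went from 15.5 ± 2.14 to 11 ± 1.96 CPM (log2 fold change −0.49), ICOSLG from 75.5 ± 10.3 to 55.4 ± 5.19 CPM (log2 fold change −0.44) and CD40 from 18.2 ± 2.4 to 14 ± 2.12 CPM (log2 fold change −0.38). The background for each of these counts is 29.6% of genes higher and 28.6% lower.

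**Figure D4:**
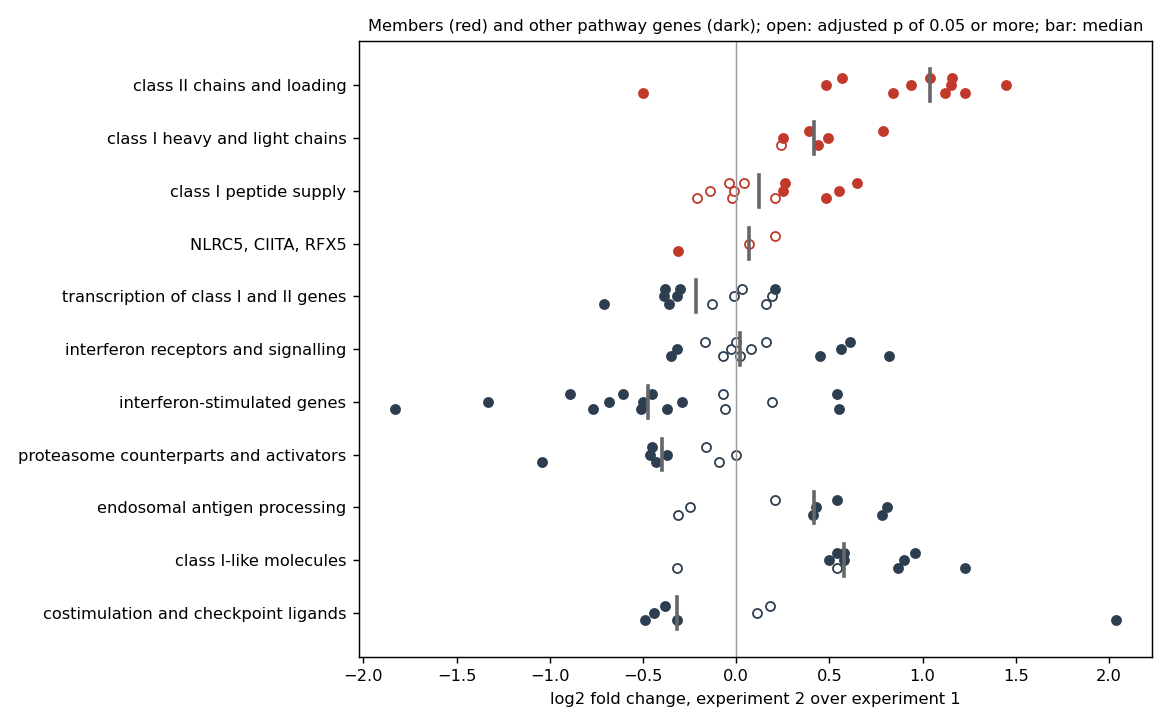
Log2 fold change from experiment 1 to experiment 2 (horizontal axis) of the members, in red by role, and of the other pathway genes, in dark by list, with open symbols for an adjusted p of 0.05 or more and a vertical bar at each median. The median lies at −0.476 for interferon-stimulated genes and at 0.579 for class I-like molecules.

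Markers of other cells that carry class II were read beside this rise. The 5 B cell markers summed to 31.6 to 37 CPM in experiment 1 and 61.4 to 76.4 CPM in experiment 2, carried by CD79A and CD79B, while MS4A1 was at 0 in all libraries. CD79A went from 11.1 to 39 CPM in mean. The 5 monocyte or macrophage markers summed to 590.1 to 653 CPM in experiment 1 and 664 to 878 CPM in experiment 2, carried by CD68 and LYZ, while CD14, CSF1R and FCGR3A stayed under 1 CPM in every library. The 5 dendritic cell markers summed to 1.04 to 1.55 CPM in experiment 1 and 2.39 to 3.92 CPM in experiment 2, almost all of it LAMP3, with CD1C at 0 in all libraries. The 4 T cell markers summed to at most 0.492 CPM, and the 4 fibroblast markers to 2.5 to 3.4 CPM in experiment 1 and 6.43 to 7.58 CPM in experiment 2. The 8 megakaryoblastic markers summed to 2759.6 to 2988 CPM in experiment 1 and 2911 to 3642 CPM in experiment 2 and the 4 erythroid markers to 329 to 373 CPM in experiment 1 and 327 to 476 CPM in experiment 2. The part of the rising marker sums in the class II result was not tested.

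ZRSR2 knockout was compared with the non-targeting guides over all 8 libraries, the comparison that the series title names. None of the 32 members passed the test, with log2 fold changes from −0.33 to 0.22 and a median of 0.009. Over all genes 0 of 14898 passed (0.0%), with a median of −0.003. At an unadjusted p under 0.05 there were 0 members, against 89 genes (0.597%). This fit leaves out the experiment, so differences between experiments count as spread, and few genes of any kind reached that p. With the experiment as a block in edgeR again 0 genes passed, and 1 member, HLA-E, was among the 690 genes (4.63%) at an unadjusted p under 0.05. By DESeq2, 4 genes passed without the block and 31 with it, and 0 of these were members. The genotypes overlapped in all 32 members, where 0.302% of genes did not overlap with knockout higher and 0.376% with knockout lower.

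The 4 members of smallest p with the block were chosen after their values were seen. HLA-E averaged 1140.4 ± 299 CPM in knockout and 1339.6 ± 489.9 CPM in control libraries (SD, n = 4 each), a log2 fold change of −0.23 (SE 0.28), and −0.19 (SE 0.08) with the block. HLA-G was at −0.33 (SE 0.19) on the log2 scale. ERAP2 was at 0.22 (SE 0.26) and ERAP1 at 0.11 (SE 0.12). Without control replicate 3, HLA-E moved to −0.07 and HLA-G to −0.13. For the 6 class II chains the log2 fold changes were −0.08 to 0.02 with standard errors of 0.32 to 0.42, and with the block −0.01 to 0.08 with standard errors of 0.11 to 0.15. A p that misses the threshold does not show that the genotypes are alike.

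Within experiments, class II chains leaned in opposite directions, and no lean passed the test. In experiment 1 the knockout effect on the 6 chains was 0.20 to 0.26 on the log2 scale, in experiment 2 −0.22 to −0.09. No member passed in experiment 1, in experiment 2 or in the difference between them, where 0 of 14898 genes passed in each (0.0%). At an unadjusted p under 0.05 there were 0 members in experiment 1 (2.05% of genes), 2 in experiment 2 (4.33% of genes) and 1 in the difference (1.66% of genes). These counts changed when single libraries were left out. More members were under that p in experiment 2 without knockout replicate 3 or control replicate 3 or 4. The same held in experiment 1 without knockout replicate 1, and in the difference without knockout replicate 3 or control replicate 3 or 4. Fewer were under it in experiment 2 when a library of experiment 1 was left out. Each such fit leaves 1 library in its cell of genotype and experiment, so its counts at that p are not printed. Without control replicate 4, the only control of experiment 2 is replicate 3. That library was the highest of 4 there in 25 of 32 members, against 27.0% of genes. Without the count filter there were 5 members among 618 genes in experiment 1 and 8 among 561 in the difference. That fit covers all symbols with any count, a larger set than the 14898. No member passed after adjustment in any of these fits. HLA-E was the member of smallest p in experiment 2, at −0.35 (SE 0.10, unadjusted p = 0.00397, adjusted p = 0.998), against −0.03 (SE 0.10) in experiment 1. HLA-G was at −0.48 in experiment 2 and −0.16 in experiment 1. Without control replicate 3, the number of genes that passed in experiment 2 changed too, and it is not printed for the same reason.

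**Figure D5:**
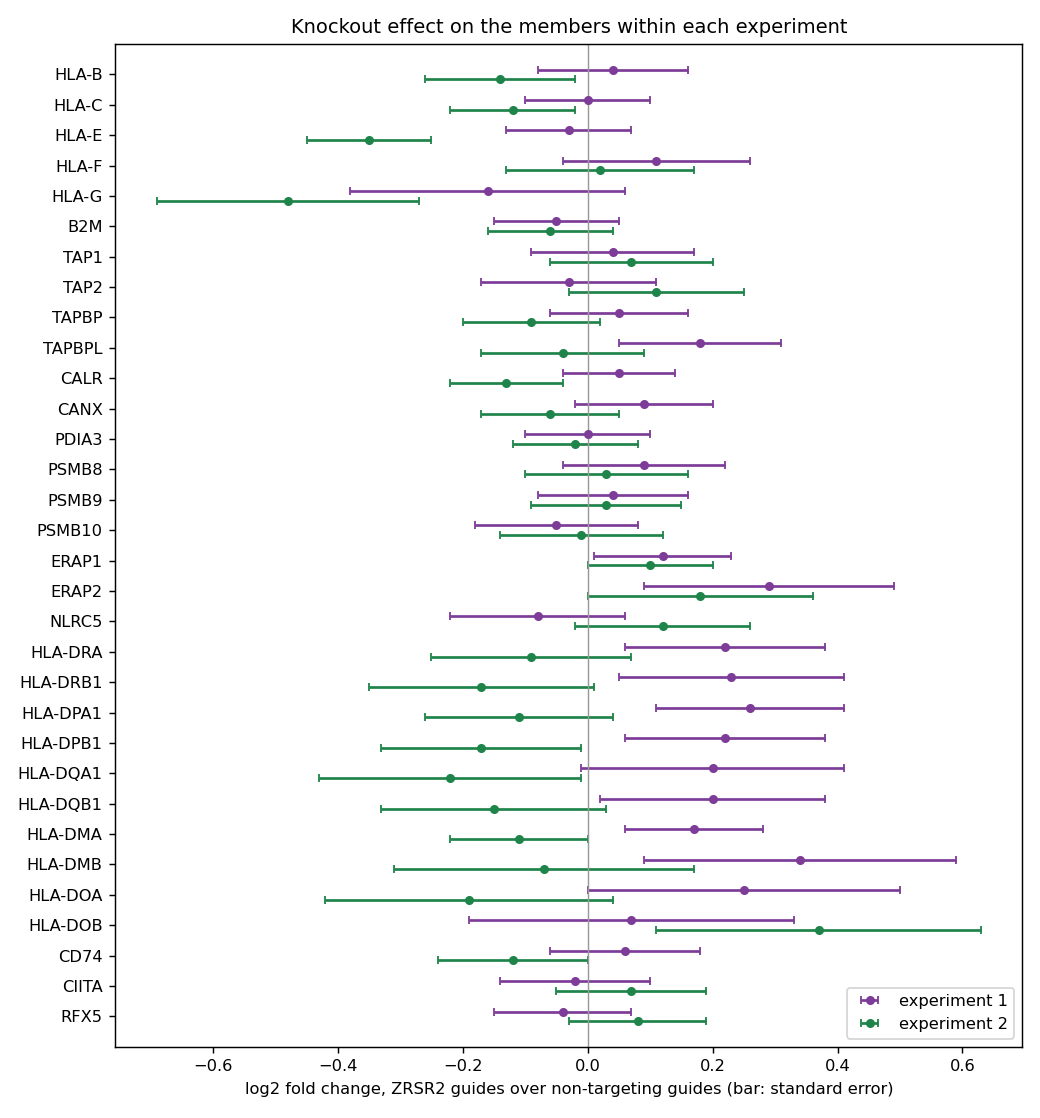
Log2 fold change of ZRSR2 guides over non-targeting guides (horizontal axis) for each member, in experiment 1 (purple) and experiment 2 (green), with bars for the standard error. Class II chains lie above 0 in experiment 1 and below 0 in experiment 2, and no member passed the test.

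Single libraries stood high within each experiment. In experiment 1 the ZRSR2 guide 2 library was the highest of 4 in 20 of 32 members, against 33.9% of all genes, and both knockout libraries lay above both controls in 16 members, against 18.5% of genes. In experiment 2 the non-targeting guide 1 library was the highest in 25 members, against 27.0% of genes. There, both libraries numbered guide 1 lay above both numbered guide 2 in 20 members, against 19.7% of genes. The median over members was 0.035 for ZRSR2 guide 1 against the controls, −0.038 for ZRSR2 guide 2, and −0.214 for non-targeting guide 2 against guide 1. The contrasts of each ZRSR2 guide share the 4 controls. For class II chains the last of these contrasts ran from −0.44 to −0.23, more than either ZRSR2 guide against the controls, at 0.01 to 0.11 for guide 1 and −0.14 to −0.04 for guide 2. With the experiment as a block the medians over members were 0.037, 0.014 and −0.185 in the same order, so the sign for ZRSR2 guide 2 turned. The class II chains then lay at 0.01 to 0.10 for ZRSR2 guide 1, −0.02 to 0.07 for ZRSR2 guide 2 and −0.36 to −0.18 for non-targeting guide 2 against guide 1. No member passed in any guide contrast (0.0% of genes). At an unadjusted p under 0.05 there were 0 members for ZRSR2 guide 1 (0.121% of genes), ZRSR2 guide 2 (0.403%), ZRSR2 guide 2 against guide 1 (0.181%) and non-targeting guide 2 against guide 1 (0.0873%). These fits leave out the experiment, so differences between experiments count as spread, and few genes of any kind reached that p. With the experiment as a block the counts of members were 0 (2.75%), 1, HLA-E (5.03%), 0 (2.52%) and 3, HLA-F, HLA-DQB1 and HLA-DOB (3.24%). At the adjusted threshold, the block gave 10 genes for ZRSR2 guide 2 (0.0671%, with 0.0268% higher and 0.0403% lower), of which 0 were members. Of the 7 pathway lists, 0 genes passed in the knockout comparison.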

How the data were processed

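Messenger RNA of SET-2 cells was sequenced in 8 libraries, 4 of ZRSR2 knockout and 4 of control cells. The values the authors deposited are expected counts for each gene symbol, and the submitters' processing notes name cutadapt 1.11, RSEM 1.2.30 and hg19. The aligner, annotation and use of strand are not given in the sources used here. All expected counts were whole, so rounding changed 0 values, and 0 columns belonged to other samples.

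Of 25435 symbols, 14898 passed edgeR's filterByExpr. TMM scaling and edgeR's quasi-likelihood test (edgeR 4.0.16, R 4.3.3) were used on the whole table, with p-values adjusted by Benjamini-Hochberg over the 14898 genes and called under 0.05. The fits used genotype alone, 4 cells of genotype by experiment, and 4 guides. Alternatives were DESeq2 1.42.0, other filters, other size factors, the experiment as a block and each library left out.

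Deviations from genotype means correlated at 0.678 to 0.846 in the 8 knockout and control pairs of one experiment and at −0.816 to −0.709 in the 8 pairs of different experiments. Because all 8 pairs of one experiment correlated, the experiment number was taken to pair the libraries. Its link to a collection day is an assumption. The lowest chi-square per degree of freedom between libraries was 3.06, so all 8 were counted as separate. Where nothing says that libraries came from separate cultures, p-values measure the spread between libraries, which may be technical.

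The 32 members and all lists were chosen with earlier results of these data known. Every member is named by role. Of each pathway list, up to 3 called genes of largest change with a mean of at least 1 CPM are named. A planned search for genes of like pattern was not made, because the libraries form 2 clusters by experiment. Promoter sequences and motifs came from RefSeq on GRCh38.p14, and lengths from GENCODE 29.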

Additional observations from a re-analysis of the deposited data

Results flagged for a closer look

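Each member's 4 libraries of a genotype or of an experiment were examined for 1 library far from the other 3 by Dixon's criterion at its 95% critical value. Of 128 such groups 9 stood apart. About 1 in 20 groups, or 6.4, would do so if each held independent draws from a single normal distribution. Genotype groups hold libraries of both experiments, and each library enters a genotype group and an experiment group. The figure of 6.4 is therefore only a rough guide, and no excess over it is claimed.

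Among the control libraries, replicate 3 was high for HLA-G at 19.0 CPM (others 11.7 to 12.1), for PSMB8 at 289.7 CPM (others 204 to 212) and for CIITA at 106 CPM (others 83.7 to 85.5). Replicate 4 of the controls was low for PSMB10, at 59.3 CPM (others 79.1 to 82.5). Among the knockout libraries, replicate 3 was low for NLRC5 at 192 CPM, with the others at 251 to 262.

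Within experiment 1, knockout replicate 2 was the library that stood apart in every case. It was high for HLA-DMB at 19.1 CPM (others 12.6 to 13.4), for HLA-DOA at 9.66 CPM (others 6.76 to 7.26) and for TAPBP at 533 CPM (others 495 to 500.1). For HLA-G it was low, at 9.58 CPM (others 11.7 to 12.1).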

How the results depend on the processing

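Of 668 recomputed values for 54 results, 622 kept their direction and their call or, for counts, changed by at most 1.5 times. The number of members called between experiments was 22, and 18 to 25 under the alternatives, with 18 to 24 higher and 0 to 5 lower. HLA-B, HLA-C, HLA-E, HLA-F, B2M, TAPBP, PSMB9, ERAP2, the 6 class II chains, HLA-DMA, HLA-DMB, HLA-DOA and CD74 stayed called in all 12. Signs turned for TAP1 (−0.09 without control replicate 3, 0.14 at the most), TAP2 (0.01 without knockout replicate 4, 0.09 without control replicate 4, −0.16 at the least), CANX (0.04 without control replicate 3, −0.13 at the least) and PDIA3 (0.05 without knockout replicate 4, −0.07 at the least).

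Over all genes, the knockout count of 0 became 4 with DESeq2 and 31 with DESeq2 and the replicate block, and it was 0 with the replicate block in edgeR. In experiment 1 it became 40 without the count filter, 5 with DESeq2 and 0 to 2 with single libraries left out. In experiment 2 it became 116, 13 and 0 to 154, the last without control replicate 3. The difference of effects gave 5 without the count filter. ZRSR2 guide 2 gave 2 with DESeq2 and 10 with the replicate block. No member was among any of these. The block changed no call of a member. The cause of these changes was not tested. For the knockout effect on class II chains, standard errors were 0.32 to 0.42 with genotype alone and 0.11 to 0.15 with the block. No comparison of precision by depth was made.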

Other observations

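The members that lie in the MHC region of chromosome 6 were compared with their neighbours there, by the gene order of RefSeq. Of the 20 members in the interval spanned by the outermost of them, 16 rose and 1 fell between experiments (80.0% and 5.0%, median log2 fold change 0.52). Of 98 other tested genes in the same interval, HLA genes left out, 45 rose and 12 fell (45.9% and 12.2%, median 0.204). Of the 12 members elsewhere in the genome, 4 rose and 1 fell (median 0.142). Over all tested genes, 29.6% rose and 28.6% fell. Neighbouring genes are not independent of each other, and no test was made.

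Further HLA rows, which are no members, also stood higher in experiment 2. HLA-DRB6, a pseudogene of the DR family, was at 15.3 to 44.4 CPM over the libraries (log2 fold change 1.13), and HLA-DQB2 at 0.814 to 2.69 CPM (1.12). The class I pseudogenes HLA-J and HLA-L were at 2.36 to 5.05 CPM (0.65) and 8.42 to 17.7 CPM (0.59). Among the B cell markers, PAX5 went from a mean of 2.15 to 4.01 CPM and CD79B from 21.1 to 24.7 CPM.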
